A study of Mus musculus with 4 samples.

Results

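The *Pax* family comprises 9 genes in the mouse, *Pax1* to *Pax9*, and all 9 were found by symbol among the 24421 genes of the expression table. They were followed in GFP+ cells sorted from E11.5 neural tubes of *Prdm13*GFP/+ and *Prdm13*GFP/GFP mouse embryos. Both genotypes carry the *Prdm13*GFP allele, a knock-in of GFP with a stop codon that interrupts exon 1 of *Prdm13*. GFP is therefore made where the locus is transcribed, with or without PRDM13 protein. Whether each sorted cell still transcribed the locus was not tested. The cells are called heterozygous and homozygous from here on. The heterozygous cells are the controls, and wild-type cells were not analysed here. Homozygous embryos die at birth, after the stage sampled. Cells of 7 heterozygous embryos gave 1 RNA pool and those of 9 homozygous embryos another, with 2 libraries prepared per pool. The libraries are therefore technical replicates, and every SD (n = 2 libraries) and p-value given here holds the spread between libraries and none between embryos. Embryo and pool effects cannot be told apart from the effect of genotype.

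Pax proteins are transcription factors that bind DNA through a paired domain, and some of them also carry a homeodomain. In the developing spinal cord *Pax3*, *Pax7* and *Pax6* are expressed in dividing progenitors, *Pax3* and *Pax7* dorsally and *Pax6* more broadly. *Pax2*, *Pax5* and *Pax8* are close relatives of each other that are switched on as neurons form, in interneurons that become GABAergic or glycinergic, and PAX2 marks the dorsal dI4 class. *Pax1* and *Pax9* are known from the sclerotome and pharyngeal pouches, and *Pax4* from the endocrine pancreas.

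Expression was measured as RPKM, the reads on a gene per kilobase of its exons, scaled to the size of the library, so levels of different genes can be set side by side. The libraries held 11393290 to 18130113 reads on genes, as recovered from the RPKM values. *Prdm13* itself stood at 114 and 127 RPKM in the heterozygous libraries and at 309.5 and 324 RPKM in the homozygous libraries, and because transcripts of the GFP allele count toward the gene, its level does not check for loss of the protein. Neuronal and progenitor markers were abundant in every library, with *Tubb3*, a neuronal tubulin, at 1017 to 1372 RPKM and *Vim*, an intermediate filament of progenitors, at 932 to 986 RPKM.

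*Pax2* and *Pax8* were both much lower in homozygous cells, 6.20-fold and 5.62-fold in mean RPKM, while the progenitor genes *Pax3*, *Pax6* and *Pax7* each differed by less than 1.5-fold. *Pax5* was low in all libraries and did not pass the test. A mean of at least 1 RPKM in either genotype was required for testing, and 6 of the 9 members met it. Calls required both a fold of 1.5 or more and an adjusted p under 0.05 (limma, Benjamini-Hochberg over 12046 genes). Of the 6 members tested 2 were called, both lower in homozygous cells, where 6.33% of all genes tested were called and 2.67% were called lower. At any fold, 4 of the 6 had an adjusted p under 0.05, beside 19.7% of all genes. The libraries of the genotypes did not overlap for any of the 6 members, which also held for 62.1% of all genes tested and so sets the members apart little.

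**Figure D1:**
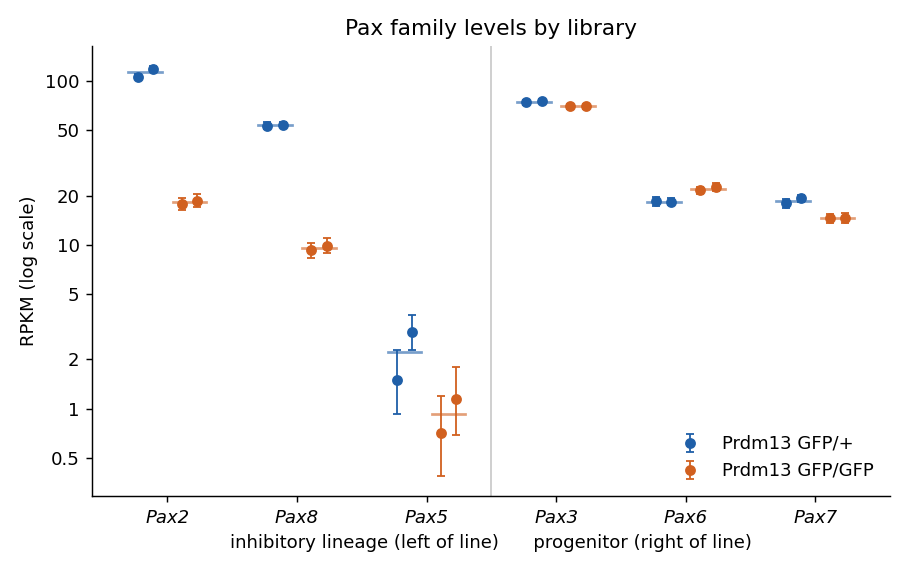
RPKM of the 6 tested *Pax* genes in each library, on a log axis. Points are single libraries with 95% Poisson intervals from recovered reads (counting error only) and horizontal lines are genotype means. *Pax2* and *Pax8* lie far lower in both homozygous libraries, whereas for each of *Pax3*, *Pax6* and *Pax7* the genotypes lie close together.

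The sequences before the transcription starts of *Pax2* and *Pax8* are shown because these are the members that were called and had nearly the same fold change. They are the 250 bases upstream of annotated starts in RefSeq on GRCm38.p6, written 5′ to 3′ on the strand of the gene, with the E-box CANNTG, the core site of bHLH factors such as PTF1A, in capitals.
Pax2 upstream start, chr19:44746351-44746600, plus strand: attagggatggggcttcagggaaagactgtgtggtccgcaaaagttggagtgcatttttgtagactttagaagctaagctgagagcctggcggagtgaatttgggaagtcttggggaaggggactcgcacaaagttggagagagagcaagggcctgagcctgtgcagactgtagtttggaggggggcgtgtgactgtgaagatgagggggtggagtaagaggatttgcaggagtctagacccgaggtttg
Pax2 second start, chr19:44755502-44755751, plus strand: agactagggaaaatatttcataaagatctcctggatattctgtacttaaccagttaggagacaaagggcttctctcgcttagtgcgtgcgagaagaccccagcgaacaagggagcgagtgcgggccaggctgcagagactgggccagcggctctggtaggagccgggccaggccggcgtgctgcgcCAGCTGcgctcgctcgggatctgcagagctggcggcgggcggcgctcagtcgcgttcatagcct
Pax8, chr2:24475600-24475849, minus strand: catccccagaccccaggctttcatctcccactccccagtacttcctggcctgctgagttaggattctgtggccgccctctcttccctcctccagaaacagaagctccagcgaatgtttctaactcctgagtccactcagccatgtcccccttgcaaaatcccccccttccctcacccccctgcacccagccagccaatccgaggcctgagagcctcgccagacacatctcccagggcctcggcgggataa

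Promoter windows were matched for 7 members, with 10 windows in all, and none was matched for *Pax3* or *Pax4*. The window of *Pax8* and the most upstream window of *Pax2* held no E-box. The second *Pax2* window held 1, of the form CAGCTG, and the most downstream *Pax2* window, the *Pax5* and *Pax9* windows and the second *Pax6* window held 1 each. Among 32851 promoter windows of the same length, 66.2% held a CANNTG on either strand and 13.001% held a CAGCTG, which is one form of the former. TTCCCA, the core of the site of RBPJ, the partner of PTF1A, was found on either strand in 21.6% of all windows and among these genes once in the most upstream *Pax2* window and once in that of *Pax9*. These matches describe the letters of the windows and nothing further.

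*Pax2* (gene ID 18504) spans chromosome 19 from 44746601 to 44838269 of GRCm38 on the plus strand and encodes the factor that marks inhibitory dI4 neurons. Its level was 106 and 119 RPKM in the heterozygous libraries and 17.7 and 18.6 RPKM in the homozygous libraries. Both mutant libraries lay far under both controls, and the gap between genotypes was many times the gap between libraries of a pool. The means were 113 ± 9.08 and 18.2 ± 0.624 RPKM, and the log2 fold change on log2(RPKM + 0.1), the scale of all fold changes from the fit, was -2.62 with an SE of 0.0670 (limma, adjusted p = 5.02e-06). With each library left out in turn the log2 fold change stayed between -2.71 and -2.54. Such a fit leaves 1 genotype with a single library, which is assumed to vary like the pair of the other genotype, so its calls are no replicated support. With no filter on RPKM, when all 24421 genes were tested, the adjusted p rose to 0.0509 and the call was lost with the fold unchanged.

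*Pax8* (gene ID 18510, chromosome 2 from 24420551 to 24475599, minus strand) is the paralog that is expressed with *Pax2* in inhibitory interneurons. It stood at 53.3 and 54.2 RPKM in heterozygous cells and at 9.27 and 9.87 RPKM in homozygous cells. The pairs of libraries within a genotype were close, and the mutant libraries were again the low ones. Its log2 fold change was -2.48 with an SE of 0.0562 (limma, adjusted p = 3.4e-06) and ran from -2.52 to -2.43 when single libraries were left out. The ratio of *Pax2* to *Pax8* was 1.995 and 2.20 in heterozygous cells and 1.91 and 1.89 in homozygous cells. The ratio was thus slightly lower in both mutant libraries. No test was run on this ratio.

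*Pax5* (gene ID 18507, chromosome 4 from 44524748 to 44710694, minus strand), the remaining gene of this subgroup and a regulator of B cells and the midbrain, had the lowest level of the tested members in both genotypes and few recovered reads. It had 1.502 and 2.94 RPKM in heterozygous cells against 0.713 and 1.15 RPKM in homozygous cells. The lower control library lay nearer to the higher mutant library than to the other control. The smallest whole numbers of reads that give these values are 21, 65, 14 and 19, and the 95% Poisson intervals of the first control library (0.930 to 2.30 RPKM) and the second mutant library (0.692 to 1.80 RPKM) overlapped. The log2 fold change was -1.13 with an SE of 0.351 (limma, adjusted p = 0.0695), with an interval from -1.97 to -0.29, so *Pax5* was not called. Leaving out the first heterozygous library, so that the controls rested on the value of 2.94 RPKM alone, gave -1.59 and a call (adjusted p = 0.0382, limma, with the spread taken from the homozygous pair). Leaving out the second heterozygous library gave -0.67 and leaving out the first homozygous library -0.82, with no call. A fit to the recovered reads (limma voom), which for any gene may be a fraction of the true number, gave -1.31 and a call (adjusted p = 0.00476).

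**Figure D2:**
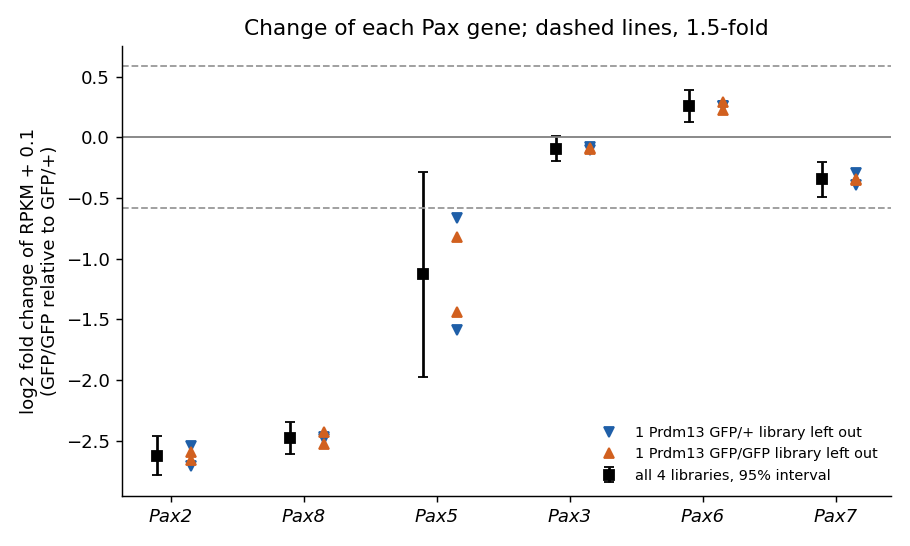
Log2 fold change of each tested *Pax* gene in homozygous cells relative to heterozygous cells, with 95% intervals from limma (black) and the values with 1 library left out (triangles). *Pax2* and *Pax8* stay near -2.5 whichever library is left out, *Pax5* ranges from -1.59 to -0.67, and the 3 progenitor genes stay inside the dashed lines at 1.5-fold.

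*Pax3* (gene ID 18505, chromosome 1 from 78101267 to 78197136, minus strand), a factor of dorsal progenitors and neural crest, had 74.0 and 75.2 RPKM in heterozygous cells and 69.9 and 70.0 RPKM in homozygous cells. These pairs lay close together, and the log2 fold change of -0.09 with an SE of 0.0436 (limma, adjusted p = 0.193) had an interval from -0.20 to 0.01, so a 1.5-fold difference between the pools lay outside it. *Pax7* (gene ID 18509, chromosome 4 from 139737059 to 139833530, minus strand), the paralog of *Pax3* in dorsal progenitors, had 17.9 and 19.2 RPKM against 14.5 and 14.7 RPKM. Its log2 fold change was -0.35 with an SE of 0.0594 (limma, adjusted p = 0.0102), past the adjusted p and short of the fold.

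*Pax6* (gene ID 18508, chromosome 2 from 105668896 to 105698410, plus strand), which patterns the ventricular zone and the eye, was the one tested member with a higher mean in homozygous cells. It had 18.4 RPKM in both heterozygous libraries and 21.5 and 22.6 RPKM in homozygous cells. The log2 fold change was 0.26 with an SE of 0.0542 (limma, adjusted p = 0.0202), again past the adjusted p and short of a 1.5-fold change. When single libraries were left out, the log2 fold change ran from 0.23 to 0.29 for *Pax6* and from -0.40 to -0.30 for *Pax7*, near the values from all 4 libraries. The adjusted p of these smaller fits, 0.0699 to 0.141 for *Pax6* and 0.0345 to 0.0882 for *Pax7* (limma), came from fewer libraries and does not show that either result depends on 1 of them. With all 4 libraries the adjusted p also depended on the fit, with the fold unchanged. With no filter on RPKM it was 0.106 for *Pax6* and 0.114 for *Pax7* (limma). Without the eBayes trend it was 0.0549 for *Pax6* and 0.0367 for *Pax7* (limma). The estimates for *Pax6* and *Pax7* had opposite signs. Relative to *Pax7*, *Pax6* went from 0.990 ± 0.05004 in heterozygous cells to 1.51 ± 0.0417 in homozygous cells, a difference larger than the spread between libraries.

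The order of levels within the family differed between the genotypes. In heterozygous cells *Pax2* was highest (113 RPKM), then *Pax3* (74.6), *Pax8* (53.8), *Pax7* (18.6), *Pax6* (18.4) and *Pax5* (2.22), and *Pax7* and *Pax6* did not differ beyond the spread of their libraries. In homozygous cells *Pax3* was highest (70.0 RPKM), then *Pax6* (22.03), *Pax2* (18.2), *Pax7* (14.6), *Pax8* (9.57) and *Pax5* (0.931), with no overlap between the libraries of neighbours in this order. *Pax2* therefore stood first among the controls, and *Pax3* and *Pax6* stood above it in the mutants.

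Summed over *Pax2*, *Pax5* and *Pax8*, the inhibitory-lineage members reached 161 and 176 RPKM in heterozygous cells and 27.7 and 29.6 RPKM in homozygous cells. The sum over *Pax3*, *Pax6* and *Pax7* was 110.3 and 113 RPKM against 106 and 107 RPKM. The ratio of the first sum to the second was 1.51 ± 0.0725 in the controls and 0.269 ± 0.0104 in the mutants, and the control and mutant libraries stood far apart relative to their spread. The inhibitory-lineage genes made up 60.1% ± 1.15 of all *Pax* RPKM in heterozygous cells and 21.2% ± 0.640 in homozygous cells. The median log2 fold change was -2.48 over the 3 inhibitory-lineage members and -0.09 over the 3 progenitor members, beside 0.01 over all genes tested. In RNA from a sorted population, fewer cells that express a gene and less of its RNA per cell cannot be told apart.

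**Figure D3:**
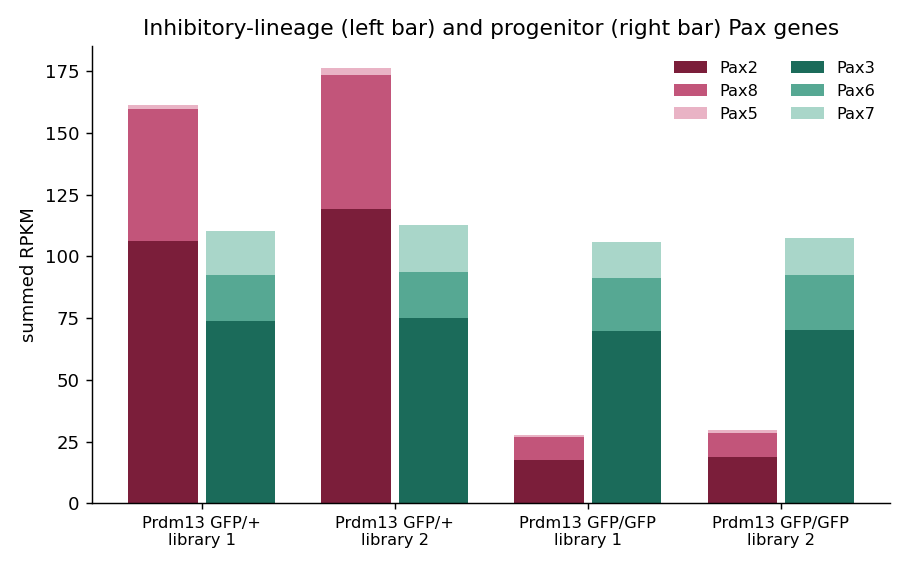
Summed RPKM of the inhibitory-lineage *Pax* genes (left bar of each pair) and the progenitor *Pax* genes (right bar) in each of the 4 libraries, stacked by gene. The left bars fall from 161 and 176 to 27.7 and 29.6 RPKM between the genotypes, while the right bars stay between 106 and 113 RPKM.

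Most of the inhibitory-lineage sum came from *Pax2* in both genotypes. *Pax2* supplied 66.0% and 67.6% of it in heterozygous cells and 64.0% and 62.8% in homozygous cells. *Pax5* supplied 0.932% and 1.67% in the controls and 2.57% and 3.88% in the mutants. Its share was higher in both mutant libraries, from few reads. Within the progenitor sum, *Pax3* supplied 66.9% ± 0.257 and 65.6% ± 0.478, while the share of *Pax6* was 16.5% ± 0.291 in the controls and 20.7% ± 0.515 in the mutants and that of *Pax7* was 16.7% ± 0.548 and 13.7% ± 0.0369.

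*Pax1*, *Pax4* and *Pax9* were at or near the limit of detection in both genotypes and were not tested. *Pax1* (chromosome 2 from 147361930 to 147375049) had at least 1, 1, 3 and 2 reads in the 2 heterozygous and then the 2 homozygous libraries, or 0.0207 to 0.0699 RPKM. *Pax4* (chromosome 6 from 28442334 to 28449340) had at least 3, 5, 0 and 2 reads, the 95% Poisson interval of the 0 reaching 0.167 RPKM. *Pax9* (chromosome 12 from 56691693 to 56712824) had at least 0, 1, 2 and 1 reads. For each of these genes the 95% Poisson intervals from these smallest read numbers overlapped between the genotypes. A difference between the genotypes was not tested.

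**Figure D4:**
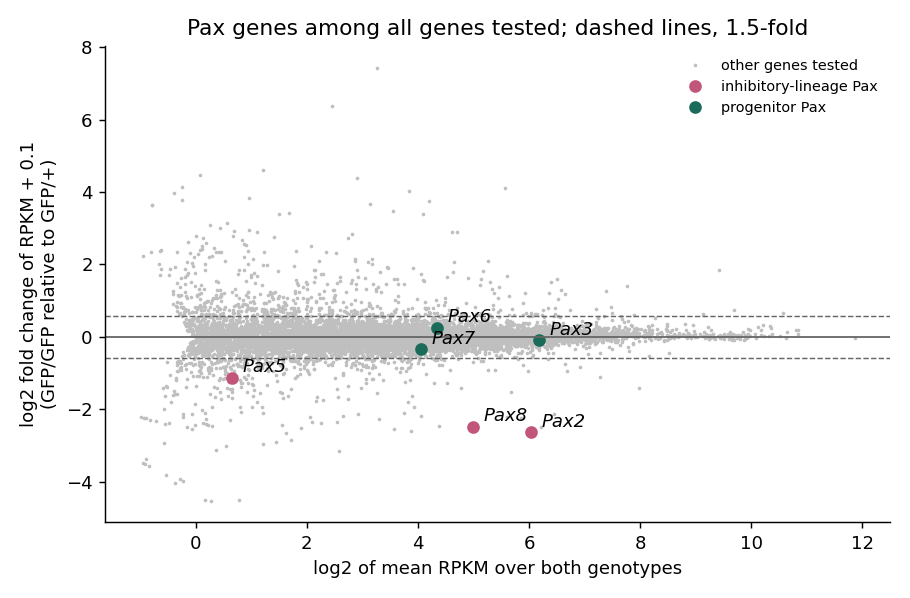
Log2 fold change in homozygous cells relative to heterozygous cells against the log2 of the mean RPKM for the 12046 genes tested (grey), with the *Pax* genes marked. *Pax2* (-2.62) and *Pax8* (-2.48) lie far under the 1.5-fold lines, *Pax3*, *Pax6* and *Pax7* lie inside the 1.5-fold lines, and *Pax5* lies at the low-level edge.

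Among the 322 genes called lower in homozygous cells, *Pax2* took place 17 and *Pax8* place 22 by fold change. The genes whose centred log2 levels over the 4 libraries lay nearest to those of *Pax2*, by Euclidean distance, were *Lhx1* (distance 0.151), which encodes a LIM homeodomain factor of dI4 neurons, *Gad2* (0.159), which encodes a GABA-synthesizing enzyme, and *Slc32a1* (0.174), which encodes the vesicular transporter of GABA and glycine. For *Pax8* the nearest were *Slc32a1* (0.0612), *Myo5b* (0.0678), an unconventional myosin, and *Lhx1* (0.0879). *Lhx1*, for example, had 121 and 131 RPKM in the controls and 22.3 and 22.5 RPKM in the mutants, a log2 fold change of -2.48 (adjusted p = 3.4e-06, limma). This likeness covers 4 libraries from 2 pools and is mainly a like fold change.

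Genes transcribed across the *Pax* loci were looked at because a read cannot be assigned to a strand without a stranded count, and the strandedness of the counting is not given in the sources used here. *Pax6os1*, antisense to *Pax6*, had 0.0499 to 0.126 RPKM in each library and shares no exon with it. *5730488B01Rik*, on the strand opposite to *Pax5*, has 1 exon that overlaps an exon of *Pax5* and had 0.561 and 0.685 RPKM in heterozygous cells and 0.426 and 0.285 RPKM in homozygous cells. It too was lower in both homozygous libraries and was under the level needed for testing, and its part in the values of *Pax5* was not tested. *AI646519*, whose exons overlap those of *Pax1*, was listed at 0 throughout, and *Slc25a21*, which has 1 exon over *Pax9*, had 0.0529 to 0.0987 RPKM. On the strand opposite to *Pax8*, *Gm13415* has 3 exons that overlap exons of *Pax8*. *Gm12462* has 1 exon over *Pax5*, also on the opposite strand. Neither was found by symbol among the genes measured, so their part in the values of *Pax8* and *Pax5* was not tested. *1700039E22Rik*, a transcript antisense to *Pax2* that lies within its span and shares no exon with it, was picked out after its values were seen. It had 2.81 and 4.61 RPKM in heterozygous cells and 0.799 and 0.949 RPKM in homozygous cells and a log2 fold change of -1.93 with an SE of 0.247 (limma, adjusted p = 0.00361), from reads that may number as few as 2 in each mutant library. It was lower in the same pool as *Pax2*.

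Genes that work with Pax proteins were read beside the family. The list held *Eya1* to *Eya4*, *Dach1*, *Dach2* and further genes that form a regulatory network with *Pax* genes, the Groucho-type corepressors *Tle1* to *Tle4* and *Aes*, and *Paxip1* and *Paxbp1*, whose products bind Pax proteins. Of its 19 genes 13 were tested, of which 2 were called higher and 1 lower in homozygous cells. Over all genes tested 6.33% were called in either direction and 2.67% were called lower. The median log2 fold change of the list was 0.05, beside 0.01 over all genes. *Eya2*, a coactivator phosphatase, rose from 17.5 and 17.8 to 29.5 and 29.8 RPKM (log2 change 0.74, SE 0.0505, limma adjusted p = 0.000264). *Tle2* rose from 0.388 and 0.543 to 1.09 and 1.20 RPKM (log2 change 1.15, SE 0.302, limma adjusted p = 0.0424). It was low and entered the test only through its homozygous mean (1.14 RPKM, against 0.466 RPKM in heterozygous cells). The filter thus favoured a rise of this gene, and its call is no separate support for one. *Eya1* fell from 2.92 and 3.03 to 1.56 and 1.68 RPKM (log2 change -0.84, SE 0.127, limma adjusted p = 0.00659). *Tle1* (0.55) and *Tle3* (0.39) had an adjusted p under 0.05 and stayed short of the fold.

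Of 14 genes listed for the dorsal inhibitory lineage, other than *Pax* genes, 12 were tested, with a median log2 fold change of -1.81. Of these 12, 10 were called lower and 2 higher in homozygous cells. Over all genes tested 2.67% were called lower and 6.33% in either direction. The study picked several of the listed genes from these libraries, so this is not independent evidence of their direction. *Gad2* (-2.60), *Slc6a5* (-2.53), which encodes the glycine transporter of glycinergic neurons, and *Lhx1* (-2.48) had the largest changes. The 2 genes called higher were *Kirrel2* (1.28) and *Nphs1* (1.37), which encode adhesion proteins of the immunoglobulin superfamily. Of 17 genes listed for progenitors, 16 were tested, of which 5 were called lower and 0 higher, with a median of -0.27. At any fold 12 of the 16 had an adjusted p under 0.05, beside 19.7% of all genes tested. Of those 12, *Sox3* (0.54), *Hes5* (0.42) and *Notch1* (0.37) were higher in homozygous cells, short of the fold, and the others were lower. The changes of *Gsx2* (-1.72), *Gsx1* (-1.18) and *Msx2* (-0.73), homeobox genes of dorsal progenitors, were the largest of this list, whereas those of *Pax3*, *Pax6* and *Pax7* lay between -0.35 and 0.26.

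**Figure D5:**
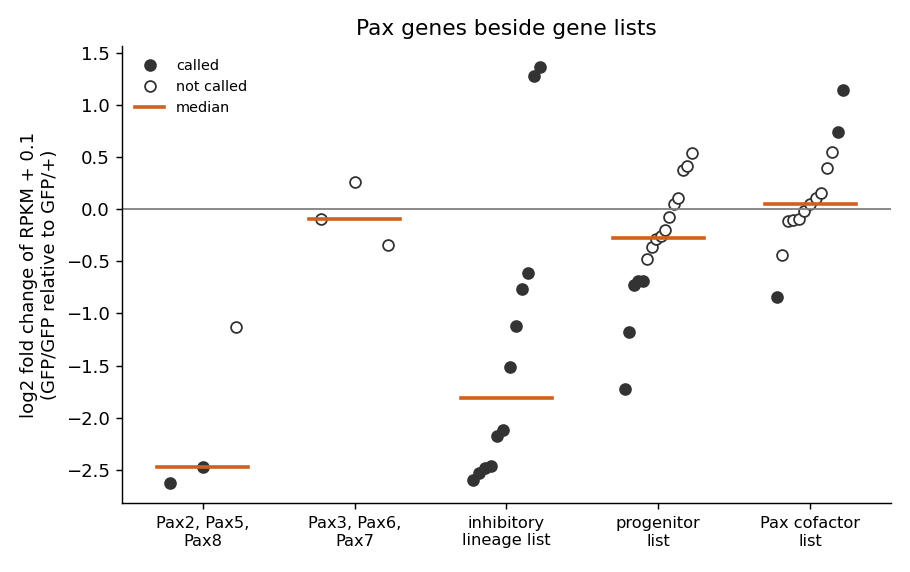
Log2 fold change in homozygous cells relative to heterozygous cells of the inhibitory-lineage and progenitor *Pax* genes beside the tested genes of 3 lists; filled points were called, open points were not, and orange lines are medians. The median of *Pax2*, *Pax5* and *Pax8* (-2.48) lies under that of the inhibitory lineage list (-1.81), and that of *Pax3*, *Pax6* and *Pax7* (-0.09) lies between those of the progenitor list (-0.27) and the cofactor list (0.05).

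Other tissues also express *Pax* genes, so their markers were read beside the members. For muscle and dermomyotome, a source of *Pax3* and *Pax7*, *Myf5*, *Myf6*, *Myod1*, *Myog* and *Dmrt2* were at or under 0.0831 RPKM in every library, and the summed level of the 8 genes, 10.01 to 12.5 RPKM, came mostly from *Tcf15* (8.52 to 11.3 RPKM). For sclerotome, a source of *Pax1* and *Pax9*, the 9 markers summed to 3.74 and 3.90 RPKM in heterozygous cells and 2.83 and 2.53 RPKM in homozygous cells. For kidney and ear, sources of *Pax2* and *Pax8*, the 7 markers summed to 5.70 and 5.60 RPKM against 3.12 and 2.75 RPKM, with *Emx2* and *Fgf8* listed at 0 throughout and *Ret* and *Spry1* called lower, and their part in the fall of *Pax2* and *Pax8* was not tested. For neural crest and sensory ganglia, a source of *Pax3*, the 8 markers summed to 119 and 129 RPKM against 131 and 132 RPKM. Of the genes reported from that list, *Ngfr* was called higher and *Foxd3* lower, while *Erbb3* was at or under 0.109 RPKM in every library, and the bearing of these genes on the level of *Pax3* was not tested. The 10 pan-neuronal genes summed to 1792 and 1839 RPKM in heterozygous cells and 2354 and 2448 RPKM in homozygous cells. Of these 10, 4 were called higher and 1 lower, beside 6.33% of all genes tested called in either direction. The part of the pan-neuronal genes in the levels of the *Pax* genes was not tested. The 6 endothelial markers summed to 2.39 to 3.65 RPKM and the 6 erythroid markers to 24.1 to 28.8 RPKM over the 4 libraries, with no gene of either list called.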

How the data were processed

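The authors aligned the reads to mm10 with TopHat2 2.1.0, counted them on RefSeq exons with featureCounts, normalized them by TMM and deposited RPKM made with edgeR 3.6.8 for 24421 genes in 4 libraries. These RPKM were used as deposited. The 12046 genes whose mean reached 1 RPKM in one genotype or the other entered a fit of log2(RPKM + 0.1) with limma 3.58.1 (lmFit, eBayes with a trend, two-sided, Benjamini-Hochberg) in R 4.3.3, tested on simulated data. Tables and plots used Python 3.11.15, pandas 2.3.3 and scipy 1.17.1.

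Each RPKM value holds its read number, scaled by exon length and library size. Library sizes were solved from short RNA genes of known length, and reads taken as the smallest whole numbers (within 0.002 read plus rounding) whose exon length was not under the shortest annotated coding length, for all 19200 genes above 0. Their sums were 11393290 to 18130113, and the solved sizes were 0.999 to 1.016 times these sums. Of the solved lengths, 23.5% lay within 5% of the merged exon length in GENCODE vM21, which is not the annotation the authors counted on, so the read number of a single gene is not fixed by its length. Reads may be whole multiples of these numbers, so intervals from them are the widest; *Pax2* had at least 2484, 4408, 582 and 514. Intervals and limits cover counting error only.

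The members and lists were chosen with earlier results of these data known. Named genes are the *Pax* genes and *Pax6os1*, *Prdm13*, called cofactor genes, up to 3 examples of other lists and the 3 nearest profiles of each called member. *1700039E22Rik*, *5730488B01Rik*, *AI646519*, *Slc25a21*, *Tle1*, *Tle3*, *Kirrel2*, *Nphs1*, *Sox3*, *Hes5*, *Notch1* and the tissue markers named were added after values were seen. *Gm13415* and *Gm12462*, which have no values, were also added then. Alternatives covered pseudocounts, filters, scaling, the prior, thresholds, a replicate block, each library left out and limma voom on recovered reads; a minimum of 20 reads was added after seeing the data. Coordinates and upstream sequences are RefSeq on GRCm38. Some genes of the lists are not reported here by name.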

Additional observations from a re-analysis of the deposited data

How the results depend on the processing

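*Pax8* was called under all 16 alternatives, and all 6 members kept their direction. With no filter on RPKM 44 genes were called, of which 1 was a member. There *Pax8* kept its call narrowly (adjusted p = 0.0476, limma) and *Pax2* (-2.62) lost its call narrowly (adjusted p = 0.0509, limma). A pseudocount of 1 moved the inhibitory-lineage median to -2.37 and quantile normalization the progenitor median to -0.15. At an adjusted p under 0.05 with no fold, 2375 genes passed, 4 of them members, with *Pax6* (0.26) and *Pax7* (-0.35). *Pax5* was called at an unadjusted p (-1.13), with at least 20 reads in a library (-1.13, chosen after seeing the data) and on recovered reads (-1.31). The cause was not tested. With each library left out 470 to 687 genes were called, the fewest without the second homozygous library, and *Pax5* lay between -1.59 and -0.67. In these fits the lone library is assumed to vary like the other genotype. Same-numbered libraries did not deviate together (correlation across genes 0.0475), so the numbers do not pair them; with the replicate number as a block 801 genes were called in place of 762, and *Pax5* too (-1.13, adjusted p = 0.00973, limma). *Pax1*, *Pax4*, *Pax5* and *Pax9* had few recovered reads. The part of depth in the result for *Pax5* was not tested.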
